A study of Mus musculus with 282 samples.

Results

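Myelin is the wrapped membrane of oligodendrocytes, and 9 genes whose products build it or mark the cells that make it were examined in mouse hypothalamus: Mbp, Mobp, Cnp, Mag, Mog, Opalin, Cldn11, Mal and Ugt8a. They were found by their gene symbol in the deposited transcript assembly, which gave 9 of the 14079 genes and 34 of the 51024 transcripts in the expression tables. Each of the 9 symbols belonged to 1 locus that carried no other gene name. All 9 genes and all 34 transcripts had passed the deposited filter, which asked for a level over 0 in no fewer than 100 mice and over 1 in no fewer than 50. Levels are in FPKM, fragments of a transcript scaled for its length and for the size of the library.

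Messenger RNA of the hypothalamus had been sequenced from 282 male mice of the Hybrid Mouse Diversity Panel, a collection of inbred strains for genetic mapping. All of the mice had been fed a high fat, high sugar diet, and their age is not given in the sources used here. The labels gave a single strain for 281 mice, which belonged to 99 strains. The values of OB-273 and OB-274, both of CXB-6/ByJ, differed by the constant factor 1.0049 in every gene and transcript, less than sampling noise, so the pair was averaged and counted as 1 mouse. That left 281 distinct libraries, of which 280 entered the comparisons, with 3 mice in 84 strains, 2 mice in 13 strains and 1 mouse in 2 strains. The strains fell into 5 sets: 43 BXD strains with 126 mice (recombinant inbred lines from C57BL/6J and DBA/2J), 18 AXB/BXA strains with 47 mice (from C57BL/6J and A/J), 6 BXH strains with 16 mice (from C57BL/6J and C3H/HeJ), 7 CXB strains with 20 mice (from BALB/c and C57BL/6 substrains) and 25 other inbred strains with 71 mice, which included C57BL/6J and DBA/2J, A/J, C3H/HeJ and BALB/cJ. Mice of a strain are genetically alike, and one further mouse, labelled with the names of 2 strains, entered no comparison between strains.

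Oligodendrocytes extend sheets of membrane that spiral around axons and then lose most of their cytoplasm, so that the membrane stack insulates the axon. Mbp and Mobp are small basic proteins that bind the cytoplasmic faces of the membrane and hold them together, and Cnp is a phosphodiesterase that keeps channels of cytoplasm open within the sheath. Mag lies on the innermost membrane next to the axon, where it binds axonal gangliosides, and is also known as an inhibitor of neurite growth. Mog sits on the outermost surface of the sheath, and Opalin is a glycosylated membrane protein of mature oligodendrocytes. Cldn11 forms the tight junctions between the layers, Mal is a proteolipid of myelin's lipid rafts, and Ugt8a is the enzyme that makes galactosylceramide, the typical lipid of myelin.

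A piece of genome sequence is shown for 4 of the genes, because later results concern their splicing or the way the genes moved together. The first is an exon of Mag at chr7:30900352-30900396, minus strand (mm10; exon 11 of 12 of the GENCODE transcript ENSMUST00000040548). It is 45 nucleotides long and its share among the Mag transcripts differed between strains. The capitals mark a stop codon that ends the reading frame 30 nucleotides into the exon, so transcripts with the exon encode the short Mag tail and transcripts without it read on into the next exon.
Mag exon: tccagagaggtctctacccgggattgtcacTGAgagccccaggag

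The others are the stretches just upstream of the first base of Mobp, Cnp and Mog in the deposited assembly, printed for 3 of the 9 genes. All 9 rose and fell together over strains, and these 3 were not the closest. The r of Mobp and Mog was 0.75, and that of Mog and Cldn11 0.89. They came from the RefSeq promoter table (GRCm38.p6), which held 8 of the 9 genes in 10 windows of 250 nucleotides before a RefSeq start. Mobp lay at chr9:120149492-120149692 (plus strand), Cnp at chr11:100574689-100574903 (plus strand) and Mog at chr17:37023399-37023648 (minus strand). The capitals mark matches on either strand. The word ACAAAG, read as CTTTGT on the other strand, is known from SOX factors. The words CTGGCAC (on the other strand read as GTGCCAG) and CTGGTAC (on the other strand read as GTACCAG) are known from MYRF. No match overlapped another.
Mobp: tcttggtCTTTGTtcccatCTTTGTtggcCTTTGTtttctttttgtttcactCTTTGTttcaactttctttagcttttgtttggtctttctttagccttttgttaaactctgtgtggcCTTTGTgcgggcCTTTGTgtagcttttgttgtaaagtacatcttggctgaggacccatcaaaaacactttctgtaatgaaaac
Cnp: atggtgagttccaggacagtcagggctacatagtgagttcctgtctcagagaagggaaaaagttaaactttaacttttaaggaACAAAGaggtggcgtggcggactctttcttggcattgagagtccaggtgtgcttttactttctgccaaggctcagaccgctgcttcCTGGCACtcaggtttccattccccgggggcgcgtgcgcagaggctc
Mog: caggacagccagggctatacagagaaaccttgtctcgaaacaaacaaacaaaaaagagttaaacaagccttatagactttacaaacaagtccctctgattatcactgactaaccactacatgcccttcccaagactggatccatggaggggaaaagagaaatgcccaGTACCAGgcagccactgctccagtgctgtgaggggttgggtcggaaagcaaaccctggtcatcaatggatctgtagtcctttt

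The window of Mobp held 6 copies of CTTTGT, and ACAAAG or CTTTGT was also found in windows of Cnp, Mag and Opalin. That made 5 of the 10 windows, against 16.5% of all 32851 promoters of the same length. CTGGCAC or GTGCCAG was found for Cnp and Mag, in 3 windows (4.19% of all promoters), and CTGGTAC or GTACCAG for Mog, in 1 window (1.83%). Overlapping windows of Mag held the same matches and were each counted. Neither ACAATG or CATTGT (10.7% of all promoters) nor TATAAA or TTTATA (12.4%) was found in the windows of any of the 8 genes. The windows of Cldn11, Mal and Ugt8a held no match to any of these words. These matches describe letters in the windows and were not tested for binding.

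Some libraries stood apart. The gene FPKM of mouse OB-547 (BXD-12/TyJ) summed to 792801, and those of the other mice to between 322047 and 463433. In 18 libraries, unannotated isoforms (assembled transcripts that share splice junctions with a known gene but not its full structure) held 9.79% to 11.2% of the transcript FPKM, against 20.3% to 24.1% in the other libraries. The 18 comprised all 17 mice of BXD62, BXD70, BXD75, BXD85, BXD-9/TyJ and BXHA1 and 1 mouse of BXD87, and isoform results are therefore given with and without them. Markers of the hypothalamus were present: Pmch (mean 496 FPKM), Pomc (272.8), Avp (243) and Hcrt (129), which encode neuropeptides of hypothalamic neurons, and the transcription factors Otp (11.5), Nkx2-1 (6.07) and Nr5a1 (2.33). Pomc ranged from 1.45 to 6851 FPKM, and Gh of the anterior pituitary from 0 to 14329. How much of the Pomc came from attached pituitary was not tested. The summed level of the 7 usable hypothalamus markers of 10, Pomc included, varied from 511 to 7916 FPKM, that of 5 thalamus markers from 17.4 to 381 FPKM, that of 6 anterior pituitary markers from 0.589 to 16462 FPKM and that of 5 choroid plexus markers from 7.25 to 2101 FPKM. Of 6 Schwann cell markers, Pmp22 alone was listed, at a mean of 15.5 FPKM, and the others were not analysed here.

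Together the 9 genes took 0.597% ± 0.101 (SD, n = 281) of the summed gene FPKM of a mouse, from 0.349% to 0.893%. FPKM is a level per length, so the genes can be set beside each other on it. Mbp, on chromosome 18 (82475146 to 82585637, plus strand), had a lowest level of 785 FPKM, a median of 1260.2 and a highest of 2281, which placed its mean at rank 6 of 14079 genes. It alone made up 62.3% of the summed level of the 9 genes.

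Mobp (chromosome 9, 120149693 to 120186686, plus strand) ranged from 159 FPKM over a median of 330 to 612 and ranked 83. Cnp (chromosome 11, 100574904 to 100591729, plus strand) ranged from 91.4 over 141 to 298.55 FPKM, the highest value being that of OB-547; without it the highest was 243 FPKM. These 3 genes of the cytoplasmic side were the most abundant of the 9.

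Mag (chromosome 7, 30897197 to 30915002, minus strand) ranged from 49.0 over 83.02 to 140 FPKM. Cldn11 (chromosome 3, 31149877 to 31165491, plus strand) ranged from 40.1 over 70.1 to 122 FPKM. The adhesion protein of the innermost membrane and the tight junction protein thus had overlapping ranges across mice. Mal (chromosome 2, 127633226 to 127656695, minus strand) had its lowest value, 10.6 FPKM, in OB-547, and otherwise ranged from 32.4 over 59.9 to 102 FPKM.

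The surface protein Mog (chromosome 17, 37010746 to 37023398, minus strand) ranged from 18.9 over 34.1 to 73.3 FPKM, the highest again in OB-547 and 68.2 FPKM without it. Ugt8a (chromosome 3, 125857060 to 125938991, minus strand) ranged from 10.5 over 20.55 to 39.0 FPKM. Opalin (chromosome 19, 41060030 to 41077123, minus strand) ranged from 6.39 over 15.1 to 46.0 FPKM, with the highest value in OB-547 and 27.9 FPKM without it. Opalin, at rank 4939, was the lowest of the 9 by mean, and no gene of the 9 was at 0 in any mouse.

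The gene FPKM sum of OB-547 was 792801, against 339804 and 337112 in its strain mates. Its levels and theirs are thus not on one scale, and levels as a percent of that sum are not given for it. In FPKM, OB-547 departed from those mates in opposite directions. Its Mog was 73.3 FPKM (43.6 and 33.1 in the other BXD-12/TyJ mice), its Cnp 298.55 (180 and 156) and its Opalin 46.0 (18.5 and 19.1), whereas its Mal was 10.6 (87.6 and 61.9) and its Ugt8a 14.2 (27.6 and 23.9). OB-422, a mouse of CXB-3/ByJ, held the highest Mbp, Mag, Mobp and Cldn11 of all mice. Its Mbp was 2281 FPKM, against 1510 and 1290 in its strain mates, while its Mal of 58.0 FPKM lay below their 72.7 and 61.2. OB-422 also had the second-highest FPKM sum, 463433, and 1568 of 15868 common transcripts (median over 3 FPKM) near 0 (under 0.05 FPKM), against at most 837 in any mouse other than OB-547 and the 18. As a percent of the gene FPKM sum, its Mbp was 0.492%, rank 15 of 281, its Mobp ranked 18, its Mag 29 and its Cldn11 33.

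The first comparison asked whether the level of the 9 genes differed between strains, the part of the variation that genetic mapping can use. All 9 genes differed (limma moderated F test on log2(FPKM + 1), 280 mice, 99 strains, Benjamini-Hochberg adjusted over all genes, threshold 0.05), as did 74.9% of all genes, so the count alone does not set the 9 genes apart. A Kruskal-Wallis test also called all 9, beside 73.0% of all genes, and limma without the 18 libraries called all 9 beside 70.4%. The adjusted p of the 9 genes, from the same limma test, lay between 1.27e-23 for Mobp and 6.82e-10 for Mbp. Strain accounted for a median share of 0.552 of the variance of the 9 genes (intraclass correlation), against a median of 0.221 over all genes. A high share was not particular to the 9. For lists of markers of other cells and tissues, the median ran from 0.204 (6 anterior pituitary genes) to 0.638 (7 microglia genes), with 0.452 for 8 astrocyte genes. In bulk tissue, fewer oligodendrocytes and less RNA per oligodendrocyte cannot be told apart.

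The strain share was highest for Mobp, 0.627, a value above that of 93.6% of genes. Opalin (0.620), Cldn11 (0.614) and Ugt8a (0.605) followed closely, and Mog (0.552) and Cnp (0.547) lay in the middle. Mal (0.447), Mag (0.426) and Mbp (0.405) had the lowest shares. The order rested in part on 1 library, for without OB-547 Opalin (0.634), Mal (0.630) and Ugt8a (0.629) lay above Mobp (0.624). Mbp, the most abundant of the genes, was thus the one whose variation was least a matter of strain, at a percentile of 79.7 among all genes.

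Mobp was lowest in LG/J, at 159, 177 and 188 FPKM in the 3 mice, and highest in BXD-16/TyJ, at 466, 510 and 557.7 FPKM, a ratio of strain means of 2.93. The next strains were BXD-19/TyJ at the low end, with 207.87 to 215.54 FPKM, and AXB-20/PgnJ at the high end, with 436, 508 and 511 FPKM. The mice of LG/J lay below all mice of BXD-19/TyJ, whereas the upper neighbours overlapped.

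Opalin was lowest in NON/LtJ, at 6.71, 7.12 and 8.14 FPKM, and its next strain, LG/J, overlapped it at 6.39, 6.94 and 11.9 FPKM. Its highest strain mean was that of BXD-12/TyJ, which contains OB-547, and the next was BXD-16/TyJ, at 23.2, 24.8 and 25.3 FPKM. The high Opalin of BXD-16/TyJ did not rest on a single mouse.

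Ugt8a was lowest in BXD-24/TyJ, at 10.5, 12.1 and 12.8 FPKM. Its highest strain mean, 36.2 FPKM, was in AXB-20/PgnJ, and the next was AXB-19/PgnJ, at 29.6, 30.7 and 33.7 FPKM. BXD-24/TyJ overlapped its neighbour BXH-19/TyJ, whose mice had 12.1 and 14.2 FPKM.

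Cldn11 was lowest in BXD84, at 44.9, 48.8 and 49.4 FPKM, and highest in BXD-16/TyJ, at 105, 106 and 114 FPKM. Both ends overlapped with the next strain, CBA/J (43.8, 50.1 and 52.7 FPKM) and AXB-20/PgnJ (89.3, 106 and 111 FPKM). BXD-16/TyJ, which also led in Mobp, had the highest mean of Mag as well, at 104, 105 and 118 FPKM, whereas Mag was lowest in BXD-24/TyJ, at 49.0, 56.5 and 62.2 FPKM.

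For Mbp, BXD-19/TyJ (828, 928.5 and 971.65 FPKM) and BXD84 (863, 864 and 1005 FPKM) were lowest and did not differ beyond their spread. BXD-40/TyJ had the highest mean, with 1634, 1868 and 1900 FPKM. The second, CXB-3/ByJ, owed its place to OB-422. Strain means of Mbp spanned a ratio of 1.98, and the widest span of the 9 genes was that of Opalin, 3.81.

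Mal was low in the single mouse of I/LnJ (38.5 FPKM) and in NZW/LacJ (34.5, 38.1 and 44.8 FPKM), and it was high in AXB-20/PgnJ (82.4, 96.6 and 102 FPKM). Mog was lowest in RIIIS/J, at 19.7, 22.2 and 23.0 FPKM. It was high in BXA-12/PgnJ, but the 2 mice there had 37.6 and 65.7 FPKM, so that the second strain, BXD-16/TyJ with 49.1, 49.2 and 56.3 FPKM, was the more even one. Cnp was lowest in CBA/J (93.8, 110 and 121 FPKM), and next to BXD-12/TyJ, with OB-547, it was highest in AXB-20/PgnJ (173, 202 and 207 FPKM).

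The same strains recurred at the ends of these orders. Of the 99 strains, 19 lay above the median of strain means in all 9 genes and 19 lay below it in all 9. BXD-16/TyJ and AXB-20/PgnJ were among the high strains of most genes, and BXD-24/TyJ and BXH-19/TyJ among the low ones. The first principal component of the 9 genes over strains held 74.6% of their variance, with loadings of one sign from 0.284 for Opalin to 0.365 for Cldn11.

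**Figure D1:**
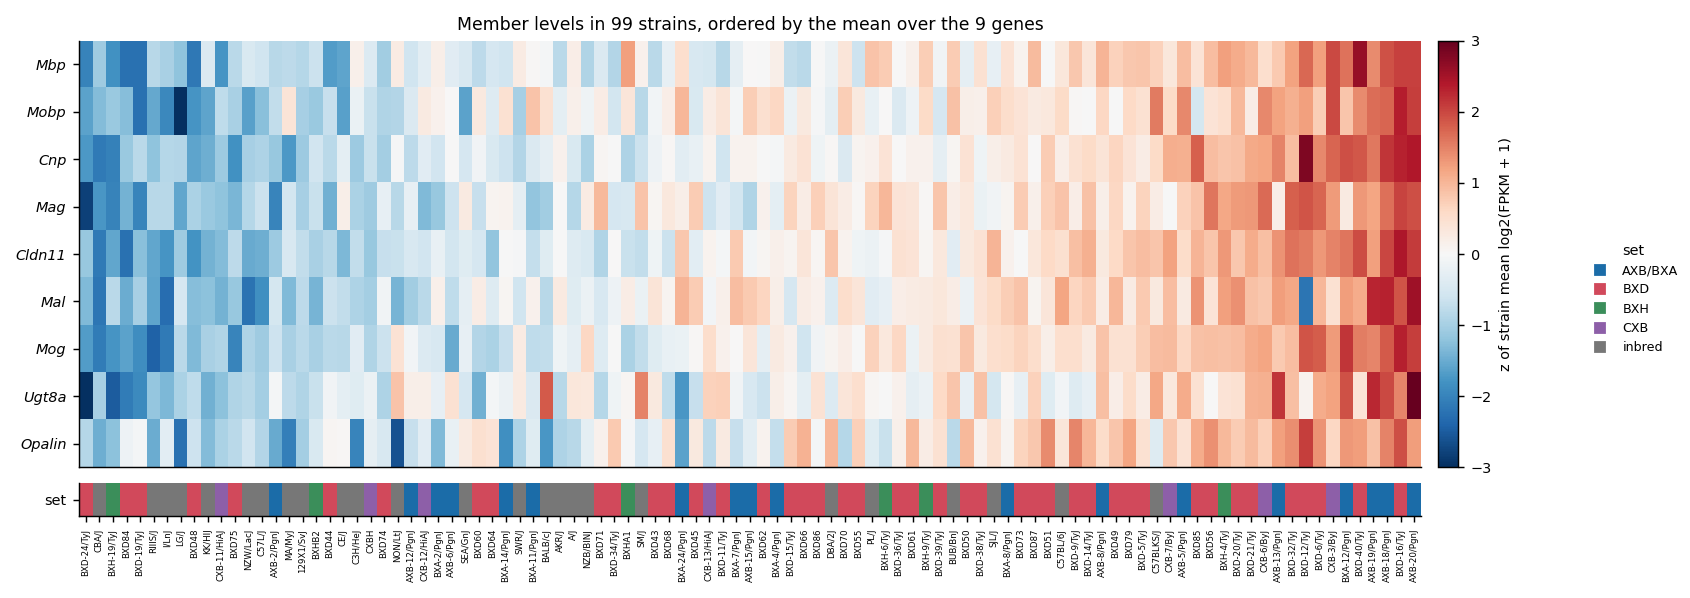
Strain means of log2(FPKM + 1), standardised per gene (colour, SD units), for 9 genes in rows and 99 strains in columns ordered by their mean over the genes, with the strain set as a bar. The turn from low to high follows in part from that order. In all 9 genes together, 19 strains lie above and 19 below the median, and the other strains are mixed.

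The second comparison asked whether the 5 strain sets differed, with each strain counted once. The moderated F test of limma on 99 strain means called 5 of the 9 genes, beside 26.9% of all genes, and 5 without the 18 libraries beside 26.8%. The genes were Opalin (adjusted p = 1.27e-05 by limma), Mal (0.00114), Mobp (0.00199), Cnp (0.0178) and Cldn11 (0.0243), and the last did not pass, at 0.0727 and 0.0529, without the first or the second mouse of each strain. Mbp (0.245), Mag (0.216), Mog (0.125) and Ugt8a (0.0844) did not pass.

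The inbred strains had the lowest mean in 8 of the 9 genes, and the AXB/BXA strains the highest in 7. Mobp averaged 377.6 ± 54.0 FPKM (SD over 18 strains) in AXB/BXA, 362 ± 73.1 in CXB, 332 ± 54.1 in BXD and 321.6 ± 46.0 in BXH, and 294.5 ± 61.2 in the 25 inbred strains. Mal averaged 67.5 ± 12.96 FPKM in AXB/BXA and 52.4 ± 8.52 in the inbred strains. Opalin departed from that order, since it was highest in BXD, at 17.6 ± 3.42 FPKM over 43 strains, with 15.01 ± 4.22 in AXB/BXA and 12.3 ± 2.88 in the inbred strains. The sets overlapped widely in each of these genes.

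Recombinant inbred lines mix the genomes of their parents, so the 5 inbred strains C57BL/6J, DBA/2J, A/J, C3H/HeJ and BALB/cJ, with 3 mice each, were set side by side. The 4 contrasts share the 3 C57BL/6J mice and are therefore not independent of each other. Opalin was 16.1, 16.2 and 16.5 FPKM in C57BL/6J and 6.496, 6.87 and 14.5 in C3H/HeJ, a log2 difference of -0.83 ± 0.21 (SE, adjusted p = 0.00238 by limma over all genes).

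In BALB/cJ, Opalin was 6.97, 9.82 and 11.7 FPKM, -0.75 ± 0.21 on the log2 scale (adjusted p = 0.00970 by limma). Neither group overlapped C57BL/6J. In A/J, at 8.99, 11.5 and 16.2 FPKM, it overlapped C57BL/6J and did not pass, and in DBA/2J it averaged 19.2 ± 1.08 FPKM (SD, n = 3), each mouse above C57BL/6J, with a difference of 0.23 that did not pass (adjusted p = 0.630 by limma). The call in C3H/HeJ was lost without the first or the second C3H/HeJ mouse (adjusted p = 0.0579 and 0.0778 by limma), and that in BALB/cJ without the third BALB/cJ mouse (0.141). With the spread taken from the 5 strains alone, neither Opalin call passed (0.0675 and 0.113).

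Ugt8a was higher in BALB/cJ, at 27.2, 29.3 and 30.7 FPKM, than in C57BL/6J, at 19.0, 19.3 and 23.3 FPKM (log2 difference 0.48 ± 0.15, adjusted p = 0.0252 by limma). That call was lost without the first (0.0773) or second (0.128) BALB/cJ mouse and without the first (0.131) or the third (0.116) C57BL/6J mouse. The galactolipid enzyme and Opalin were thus opposite in sign in BALB/cJ.

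Mal was 68.8, 71.3 and 78.3 FPKM in C57BL/6J, above all 12 mice of the other parents. Its means there were 54.6 ± 5.54 FPKM in DBA/2J, 55.0 ± 2.48 in A/J, 49.7 ± 5.53 in C3H/HeJ and 50.4 ± 3.22 in BALB/cJ (SD, n = 3 each). Despite the absence of overlap, none of the log2 differences, -0.41, -0.40, -0.55 and -0.52, passed in the fit over all strains, whose residual spread for Mal includes OB-547 (adjusted p = 0.228, 0.234, 0.0678 and 0.0912 by limma). With the spread of the 5 strains alone, all 4 passed (0.0218, 0.0254, 0.00358 and 0.00578 by limma).

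Over all genes tested, 7.56% differed between C3H/HeJ and C57BL/6J, 6.75% for BALB/cJ, 7.98% for A/J and 6.85% for DBA/2J. Of the 9 genes, 1 differed in C3H/HeJ and 2 in BALB/cJ. None did in A/J or DBA/2J by limma, where 3 and 1 of the 9 had an unadjusted p under 0.05. With the spread of the 5 strains alone, the shares of all genes were 7.70% for C3H/HeJ, 5.77% for BALB/cJ, 8.24% for A/J and 7.12% for DBA/2J. Most means lay below C57BL/6J, in 9 of the 9 genes for C3H/HeJ, 8 for BALB/cJ, 8 for A/J and 7 for DBA/2J. These counts are not independent, since the 9 genes correlated with each other and the contrasts share the C57BL/6J mice. The shares of all genes with a lower mean or without overlap are not given here. Mag was among the genes with lower means, with 3 mice of A/J, C3H/HeJ and BALB/cJ each below the C57BL/6J mice and log2 differences of -0.34, -0.36 and -0.38 that did not pass (adjusted p = 0.187, 0.158 and 0.137 by limma). The log2 differences of Mbp were -0.10 to -0.03.

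The recombinant strains often lay outside the range of their parents' means. Mbp, whose parents differed little, was below both parents in 8 and above both in 10 of the 18 AXB/BXA strains. Mag in BXD was below both parents in 23 strains, between them in 8 and above in 12. Mal, whose parents stood further apart, lay between them in 31 of 43 BXD strains, and Opalin did so in 5 of 6 BXH strains and 4 of 7 CXB strains, with none below. These counts rest on parental means of 3 mice each and were not tested. For CXB, BALB/cJ and C57BL/6J stood in for the parent substrains.

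**Figure D2:**
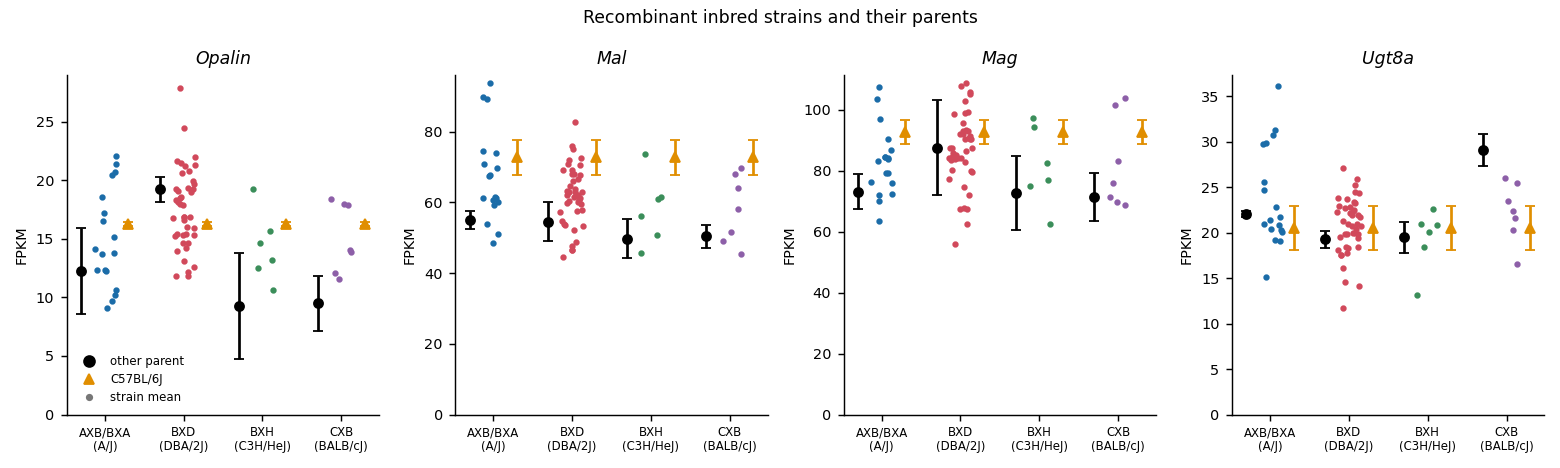
FPKM of Opalin, Mal, Mag and Ugt8a in the 4 recombinant inbred sets; dots are strain means, the black circle is the mean ± SD of 3 mice of the other parent and the orange triangle that of C57BL/6J. Mal of C57BL/6J (72.8 FPKM) lies above the other parent in each set, and strains of Mag and Ugt8a extend beyond both parents. For CXB, BALB/cJ and C57BL/6J stand in for the parent substrains.

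The third comparison asked whether the 9 genes varied together. Over 99 strain means, all 36 pairs correlated positively (permutation test, 100000 resamples, two-sided, Benjamini-Hochberg over 36 pairs), with Pearson's r from 0.41 to 0.89 and a median of 0.72. Spearman's rho ran from 0.42 to 0.89. The strongest pair was Mog and Cldn11 (r = 0.89) and the weakest Opalin and Ugt8a (r = 0.41, rho = 0.42, adjusted p = 4e-05 by permutation). When the 2 strains with the most extreme level of the first gene of a pair were left out, r ran from 0.44 to 0.88.

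Cldn11 had the highest median r with the other 8 genes, 0.80, and Opalin the lowest, 0.60. Taken set by set, the pairs had a median r of 0.83 in AXB/BXA (18 strains), 0.77 in BXD (43), 0.79 in BXH (6) and 0.86 in CXB (7). It was 0.57 in the 25 inbred strains, where Opalin and Ugt8a were unrelated (r = -0.01) and the other 35 pairs were positive.

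Mice of one strain share their genotype, and the deviations of mice from their strain mean, in strains with more than 1 mouse, gave a second view. There, 34 of 36 pairs correlated (permutation within strains, adjusted over 36 pairs), with r from 0.16 to 0.94 and a median of 0.63. Mbp and Mobp were the strongest pair, at r = 0.94 and rho = 0.93. Mal and Opalin (r = 0.16, rho = 0.45, adjusted p = 0.389 by permutation) and Cnp and Mal (r = 0.29, rho = 0.71, adjusted p = 0.0826) did not pass. Both rested on OB-547, for without it their r was 0.51 and 0.75 and all 36 pairs passed, with r from 0.43 to 0.94 and a median of 0.77.

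**Figure D3:**
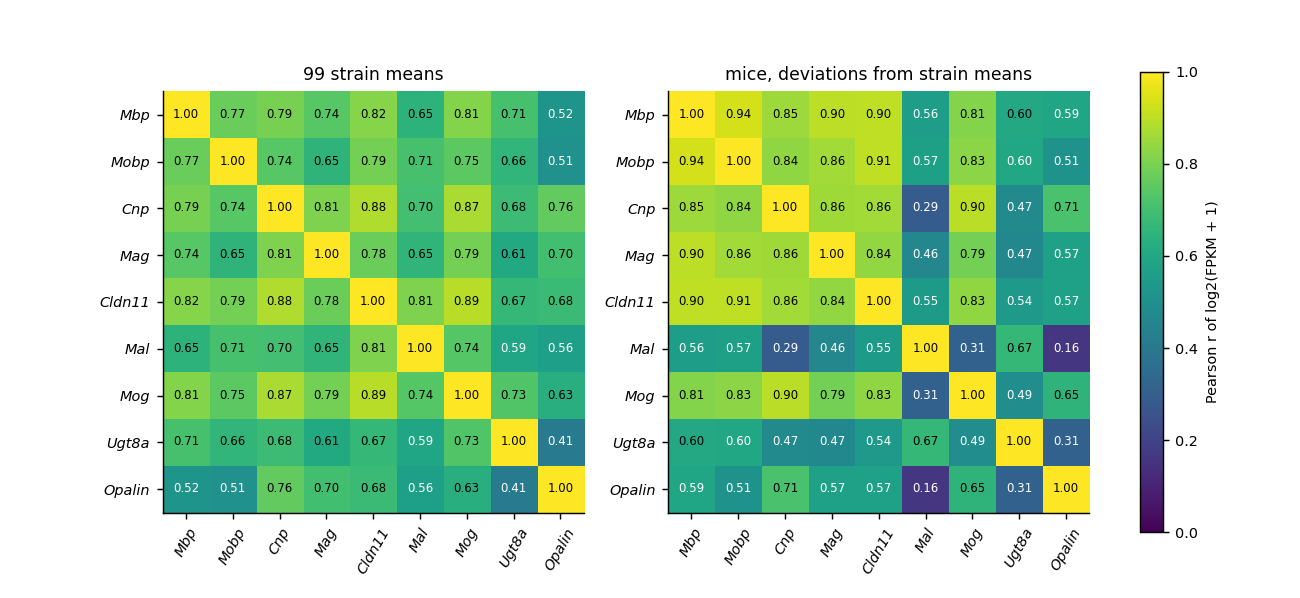
Pearson's r (colour) of the 36 pairs of the 9 genes over 99 strain means and over deviations of mice from their strain mean. All pairs are positive in both views, from 0.41 to 0.89 over strain means and from 0.16 to 0.94 within strains, where Mal is lowest with Opalin and Cnp.

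Genes outside the 9 were ranked by r with the mean of the 9 standardised genes. Over strain means, Fa2h, which hydroxylates the fatty acids of galactosylceramide, led with r = 0.88, followed by the myelin proteolipid Pllp (0.85), Tmem88b (0.84), Csrp1 (0.83), the septin Sept4 (0.83), Rhog (0.82), the aspartoacylase Aspa (0.81), Plekhg3 (0.81), Slain1 (0.80) and the receptor Gpr37 (0.79). Of 14070 other genes, 35 reached r of 0.7, and the central 90% of genes lay between -0.33 and 0.32. Within strains the nearest 10 included Bcas1 (0.86), Plekhb1 (0.85), a locus named Gm20425/Srprb/Trf that holds transferrin (0.85), the carbonic anhydrase Car2 (0.82), Gatm (0.80), Galnt6 (0.79), Fa2h (0.79), the connexin Gjb1 (0.76) and the protease Adamts4 (0.76). Fa2h alone was in both sets of 10.

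Lists of related genes were described by the same r with the mean of the 9 genes over strain means. Counts of list genes that differed between strains stand beside 74.9% of all genes, so they do not set a list apart. Of 32 mature oligodendrocyte markers, 27 were usable, their median r was 0.72 and 21 had r of at least 0.5; all 27 differed between strains, with a median strain share of 0.5002. Car2 had the highest strain share of that list, 0.731, with r = 0.43 over strains. Mcam was unrelated (r = 0.04).

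Of 14 progenitor markers, 9 were usable and 8 of them differed between strains, with a median r of 0.01. Pdgfra, the growth factor receptor that defines progenitors, had r = 0.03 and Cspg4 r = -0.14. Bcas1, a marker of oligodendrocytes that are starting to myelinate, was the exception at 0.70. As a list, the progenitor markers had r from -0.01 (Opalin) to 0.23 (Mbp) with the 9 genes over strain means and passed with 1 of them, with 4 under quantile normalization and with 1 without OB-547 (permutation, adjusted over the 270 tests of a gene against a list).

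Among 9 usable transcription factors of the lineage, 8 differed between strains and the median r was 0.37. Sox10 (r = 0.73), Myrf (0.68) and Sox8 (0.53) were high, and Olig2 (0.20) and Nkx6-2 (0.09) low. Sox10, which drives the myelin programme with Myrf, was lower than in C57BL/6J in all 4 other parents, with log2 differences of -0.48 in DBA/2J, -0.59 in A/J, -0.57 in C3H/HeJ and -0.46 in BALB/cJ (adjusted p = 0.0195, 0.00200, 0.00299 and 0.0323 by limma). Myrf was lower in C3H/HeJ by a log2 difference of -0.50 (adjusted p = 0.00398 by limma). Of the 9 factors, 1 was called lower in DBA/2J, 3 in A/J, 5 in C3H/HeJ and 2 in BALB/cJ, and none higher. Over all genes, 6.85%, 7.98%, 7.56% and 6.75% were called in either direction. The 4 contrasts share the C57BL/6J mice, and results without single mice are not given for these factors.

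Of 14 usable genes of myelin lipid synthesis, 12 differed between strains, and the median r was 0.15. The exceptions were Fa2h, the ceramide synthase Cers2 (0.75) and the elongase Elovl7 (0.65). The sterol enzymes Sqle and Hmgcs1 had r of -0.05 and 0.27, although strain accounted for 0.664 of the variance of Hmgcs1. Of 7 usable genes of the myelin inhibitor pathway, through which Mag acts on neurons, all differed between strains and the median r was 0.13, with Rtn4 (Nogo) at 0.22 and the co-receptor Lingo1 at -0.01. Over strain means that list passed with none of the 9 genes, and within strains it passed with all 9, with r from 0.18 (Opalin) to 0.47 (Mag).

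Markers of other cells were set against the 9 genes in the same 270 tests. Over strain means, microglia markers correlated positively with 6 of the 9 genes, with r from 0.16 to 0.34 over the 9, and neuron markers negatively with 6, with r from -0.31 to 0.01, though Mbp turned to r = 0.15 under quantile normalization. Without OB-547 the count for neuron markers was 1. Astrocyte markers passed with none of the 9 over strain means (r from -0.09 to 0.15) and with 2 within strains (r from -0.06 to 0.46), or 6 under quantile normalization. Endothelium markers passed positively with 3 over strain means (r from 0.01 to 0.29) and with 6 within strains (r from -0.10 to 0.33). Pmp22, the one usable Schwann cell marker, passed with all 9 in both views, with r from 0.30 (Opalin) to 0.63 (Ugt8a) over strain means and from 0.21 (Mal) to 0.58 (Mbp) within strains, and oligodendrocytes are also known to express it. Within strains, thalamus markers passed with 8 of the 9 genes, with r from 0.09 (Opalin) to 0.40 (Mag), and hypothalamus markers negatively with 6, with r from -0.49 (Mal) to -0.15 (Cnp); without OB-547 the count was 9. The part of these other cells and neighbouring tissues in the variation of the 9 genes was not tested.

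The 34 transcripts comprised 24 known and 10 unannotated ones. Between strains, 27 of the 34 transcript levels differed, beside 45.9% of all transcripts, and without the 18 libraries 24 did, beside 25.7%. The share of a transcript in the summed FPKM of its locus removes the level of the gene. By that measure, 21 of 32 transcripts at loci with several transcripts differed, beside 36.7% of all, and without the 18 libraries 15 did, beside 17.0%. Mog and Mal had 1 transcript each and thus no share.

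Mbp had 11 transcripts, all known. The main one, TCONS_00164013, had a mean of 1008 ± 197 FPKM (SD, n = 281) and a median share of 80.0%, from 71.1% to 86.6%, and its share differed between strains (adjusted p = 3.05e-16 by limma; 3.42e-09 without the 18 libraries). The next, TCONS_00164012, had a median share of 8.59%. Several of the 11 differ from each other by their ends only, so the division of reads among them is an estimate.

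One form of Mbp went its own way. TCONS_00163995 starts 5′ of all others, has 4 exons and belongs to the golli group, which is made in neurons and immature cells as well as in oligodendrocytes. It had 8.15 to 15.1 FPKM, a median of 11.3. Over strain means it was unrelated to the Mbp gene level (r = 0.04, rho = 0.03, p = 0.678 by permutation), and within strains it was weakly negative (r = -0.23, rho = -0.17, adjusted p = 0.0158 by permutation).

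Mobp had 5 transcripts, of which TCONS_00361905 had a mean of 281.5 ± 62.6 FPKM and 84.7% of the locus; its share differed between strains also without the 18 libraries (strain share 0.741). The unannotated TCONS_00361899 had a median of 11.3 FPKM in the other libraries and 0.00118 FPKM in the 18, and TCONS_00361903 had 0.0199 and 17.3 FPKM. The strain share of the first fell from 0.909 to 0.605 without the 18, and the strain call of the second was lost (adjusted p = 0.632 by limma). All but 1 of the 18 libraries come from whole strains, and in those strains strain and library cannot be told apart. The exception is OB-997 of BXD87. It had 1.25 FPKM of TCONS_00361899, against 13.9 and 13.6 in the other BXD87 mice. Its TCONS_00361903 was 17.8 FPKM, against 0.0213 and 0.00238. The cause of the difference was not tested.

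Other transcripts also differed between the 18 and the rest. Mbp TCONS_00164011 had a median of 41.2 FPKM in the other libraries and 0 in the 18 libraries, and TCONS_00164014 had 5.09 and 73.0 FPKM. Cnp TCONS_00054571 had 3.56 and 0 FPKM. Cldn11 TCONS_00212528, at a median of 1.32 FPKM in the other libraries, lost its call without the 18 (adjusted p = 0.277 by limma). At the gene level the 18 libraries moved the 9 genes by -0.05 (Mog) to 0.09 (Mal) on the log2 scale.

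Cnp was carried by TCONS_00054567, with 67.3% of the locus, and TCONS_00054573, with 26.9%, and neither share differed between strains without the 18 libraries (adjusted p = 0.569 and 0.238 by limma). Cldn11 (98.1% in TCONS_00212531), Ugt8a (92.1% in TCONS_00229630) and Mag (96.0% in TCONS_00320024) each had 1 dominant known transcript. Opalin was the exception, in that its unannotated TCONS_00178471 took the larger part, 62.9%, with 9.32 ± 3.06 FPKM, against 37.1% and 5.48 ± 2.43 FPKM for the known TCONS_00178482. That division did not differ between strains (adjusted p = 0.956 by limma), though the levels of both did.

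Inclusion of a skipped exon was measured as the FPKM of transcripts with the exon over that of transcripts with or without it. Mbp, Mag and Mobp had 9 such skipping events at 7 exons, an exon counting more than once where its flanking exons differ. Of the 9 events, 7 differed between strains, beside 26.0% of 5055 events, and 6 did without the 18 libraries, beside 13.9%; either way the called events lay at 6 exons. In Mbp, the 78-nucleotide exon that is present in some of the classic isoforms only was included at 9.07% ± 1.81 (SD, n = 281), with a strain share of 0.559 (0.548 without the 18). Its inclusion was 11.7%, 12.05% and 12.4% in BALB/cJ and 6.64%, 8.60% and 8.73% in C57BL/6J, without overlap. The 123-nucleotide exon next to the end of Mbp was included at 11.5% in the other libraries and 19.9% in the 18 libraries when joined to the 33-nucleotide exon before it. Joined past that exon, it was included at 98.2% ± 2.34 and 39.8% ± 44.0 (SD). In the 18 libraries the 3 transcripts with it each had a median of 0 FPKM and the 1 without it 0.640 FPKM. The 39.8% is thus a ratio of levels near 0. The strain call of that event was lost without the 18 (adjusted p = 0.524 by limma). The 79-nucleotide exon of Mobp was included at 93.9% and 98.3%.

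Mag gave the sharpest isoform differences. The 45-nucleotide exon printed above was included at 96.5% ± 1.75 (SD, n = 281), from 93.6% to 99.9%, with a strain share of 0.839 (adjusted p = 1.19e-35 by limma). A second exon of Mag, in the leader (chromosome 7, 30914269 to 30914321, 53 nucleotides), is an internal exon of the unannotated TCONS_00320019 alone. The dominant TCONS_00320024 starts at 30914327, just upstream of it, and does not enter its inclusion. That value compares the 4 unannotated transcripts only, so low inclusion does not mean that most Mag RNA lacks the sequence. The strain share of this inclusion was 0.925 (adjusted p = 3.82e-80 by limma), 0.930 without the 18 libraries.

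Strain means of the 53-nucleotide exon fell into separate ranges. In 23 strains they were 52.6% or more, and in the other 76 they were 22.2% or less. Without the 18 libraries 21 of 93 strains were high, the lowest at 56.2%, and the other 72 were at 22.2% or less; BXD62 (52.6%) and BXD75 (53.3%) consist of those libraries. The 23 were 18 of the 43 BXD strains and the inbred strains DBA/2J, NZB/BlNJ, NZW/LacJ, RIIIS/J and SM/J, and no AXB/BXA, BXH or CXB strain was among them. DBA/2J had 85.6%, 86.8% and 89.5%, C57BL/6J had 0%, 11.2% and 22.1%, A/J had 0%, 8.80% and 13.5%, BALB/cJ had 20.4%, 22.1% and 23.9%, and C3H/HeJ had 0% in 3 mice. The means of the 18 high BXD strains ran from 52.6% to 83.2%, below the mean of DBA/2J (87.3%). Single mice overlapped, since OB-1414 of BXD-15/TyJ had 91.3%, the highest value of all mice. The other 25 BXD strains had means of at most 9.34%.

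The same 23 strains had at least 98.2% inclusion of the 45-nucleotide exon, and the other strains at most 96.9%. These measures are not independent, since TCONS_00320012, TCONS_00320015 and TCONS_00320017 are the transcripts without the exon in both and TCONS_00320019 is one with it in both. The 4 unannotated Mag transcripts behind the 53-nucleotide exon had a summed median of 3.38 FPKM, against a median of 83.02 FPKM for the gene, so the split concerned a small part of the Mag RNA. At the gene level, Mag did not differ between DBA/2J and C57BL/6J beyond the spread of mice (log2 difference -0.10 ± 0.15, SE, adjusted p = 0.816 by limma).

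**Figure D4:**
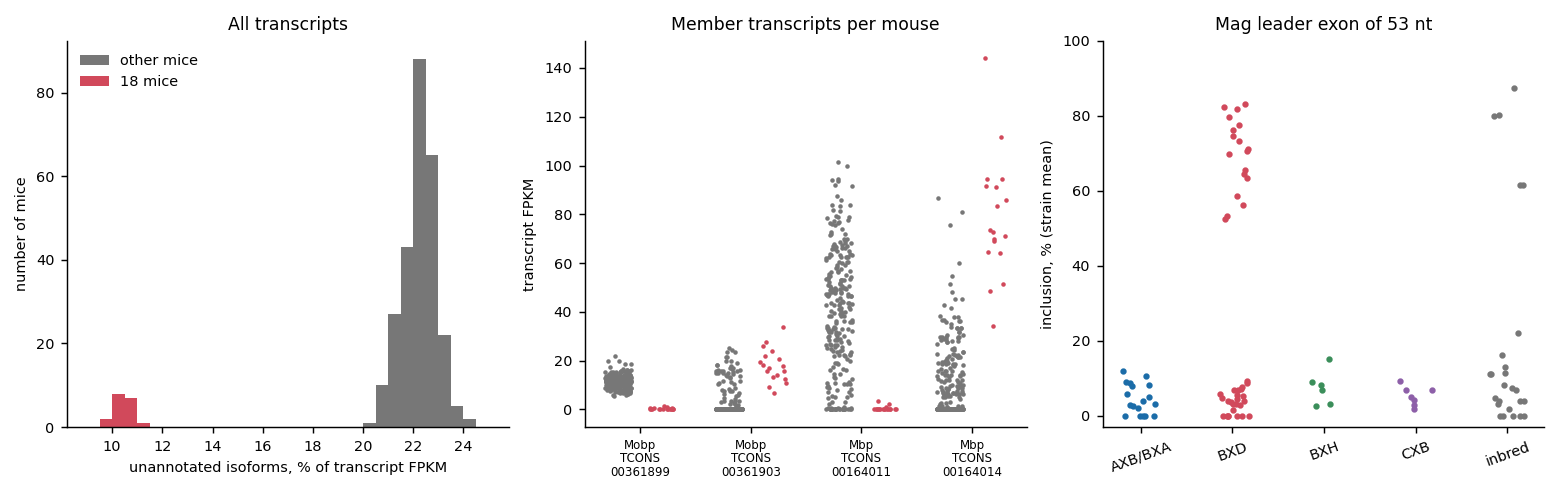
Histogram of the percent of transcript FPKM in unannotated isoforms, FPKM of 4 transcripts of the 9 genes per mouse (grey, other libraries; red, 18 libraries), and percent inclusion of the 53-nucleotide Mag exon per strain mean by set. The 18 libraries lie at 9.79% to 11.2% apart from the rest, and the Mag exon splits the BXD and inbred strains into means of at most 22.2% and at least 52.6%.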

How the data were processed

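Hypothalamic mRNA of 282 mice was sequenced from unstranded libraries. Per the labels and methods, the authors used STAR 2.3.1 for alignment (mm10), Cufflinks 2.2.0 for an assembly of each strain that was merged with GENCODE, and Cuffnorm 2.2.1 for normalization; the deposited values are FPKM per gene and transcript, filtered at FPKM above 0 in 100 and above 1 in 50 mice. No read counts per gene or transcript were used, so the reads behind a single value are unknown and no counting interval is given. Mapped reads per library were used as a covariate in an alternative run. The libraries were unstranded, so reads of antisense genes cannot be told apart.

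Libraries OB-273 and OB-274, proportional to each other over all 111345 values, were averaged and counted once. Log2(FPKM + 1) was fitted with limma 3.58.1 in R 4.3.3 over 99 strains and 280 mice, and contrasts, set differences, isoform shares and exon inclusion were tested over all features with Benjamini-Hochberg adjustment at 0.05. Correlations used Python 3.11.15 with 100000 permutations, whose smallest p is 1e-05. Kruskal-Wallis, quantile normalization, other pseudocounts, a stricter filter, covariates and leaving out mice were alternatives. Scripts were tested on simulated data. The genes named were the 9, their transcripts, the 10 nearest genes in each view and the listed markers. Members and lists were chosen with earlier results of these data known. A few genes of the lists are not reported here.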

Additional observations from a re-analysis of the deposited data

How the results depend on the processing

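The direction and call of the strain, set and parent results held in 179 comparisons of a summary with an alternative and changed in 22, and those of single genes, transcripts and pairs in 2580 of 2700, with 76 losing a call, 42 gaining one and 2 reversing. All 9 genes kept their strain call under each alternative run, with Kruskal-Wallis tests included (9 of 9, beside 73.0% of all genes).

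Leaving out 1 mouse of each strain lowered counts, as fewer mice were tested: genes with strain differences went from 10547 to 6421–8641, transcripts from 23401 to 12367–16851, isoform shares from 17480 to 8860–12253, exons from 1312 to 597–813 and set differences from 3789 to 1917–3135. For the 9 genes, transcripts went from 27 to 22–23, shares from 21 to 15–18, exons from 7 to 6–7, set calls from 5 to 4–5 and correlated pairs within strains from 34 to 29–36. In the parents, leaving out 1 of the mice gave 0–1 calls in C3H/HeJ, 1–2 in BALB/cJ and 4.38%–6.41% of all genes in BALB/cJ, from 1, 2 and 6.75%. The spread of the 5 parents alone gave 1 call each in DBA/2J and A/J instead of 0. Without the 18 libraries (an alternative chosen after seeing the data, as was leaving out OB-422 with OB-547), 13110 transcripts, 8102 shares and 704 exons differed. Under quantile normalization, the r of Mbp with neuron markers over strain means became 0.148 and that of Cnp with ependyma markers within strains became -0.112; the cause was not tested.

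No paired analysis was possible because replicate numbers were given in accession order and pair no mice. The reads behind each value are unknown, so low transcripts such as those of Mag at 0 in many mice cannot be given a detection limit. P-values of strain tests and parent contrasts measure the spread between the mice of a strain, and those of set tests and of correlations over strain means the spread between strains.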

Other observations

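Mouse OB-627, whose labels named 2 strains, entered no comparison. Its levels were 1649 FPKM for Mbp, 426 for Mobp, 175.3 for Cnp, 93.7 for Mag, 88.9 for Cldn11, 69.7 for Mal, 48.1 for Mog, 28.4 for Ugt8a and 20.9 for Opalin. Each lay above the median of the 281 mice.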
